A study of Mus musculus with 18 samples.

Results

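The Lin28 and let-7 axis was followed through 10 genes of the 55450 in the expression table, found by their symbols: Lin28a, Lin28b, Dis3l2, Trim71, Hmga1, Hmga2, Igf2bp1, Igf2bp2, Igf2bp3 and Arid3a. All 10 were expressed in mouse P19 embryonic carcinoma cells, and all 10 passed the filter on low values in each comparison. The cells came as 3 lines of 6 samples each, 18 in all. WT cells carry Dicer (+/+). HetKO cells carry Dicer (+/-), in which a CRISPR frameshift truncated 1 allele. HM cells carry Dicer (HM/-) and were made from HetKO cells by editing the remaining full-length allele to a hotspot mutation of the RNase IIIb domain. Each edited genotype is a single line, so the effect of an allele and that of the cloning step that came with it cannot be told apart. Poly(A)-selected mRNA was sequenced, and expression is given as TPM, a length-corrected transcript level scaled to a fixed total in each sample.

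let-7 is a family of microRNAs that rises as cells differentiate and lowers mRNAs carrying matches to its seed. In stem and embryonic carcinoma cells the RNA-binding proteins LIN28A and LIN28B bind let-7 precursors through the terminal loop and block their processing. LIN28A also recruits the uridylyl transferases TUT4 and TUT7, which tail the precursor, and the exonuclease DIS3L2 then degrades it. The mRNAs of Lin28a, Lin28b, Trim71, Hmga2, the Igf2bp genes and Arid3a are themselves known let-7 targets, so the pathway forms a loop. The mature let-7 strand comes from the 5p arm, the arm that the RNase IIIb domain of Dicer cuts.

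The sequences that tie these genes together are the let-7 seed and its matches. In RefSeq (GRCm38.p6), 10 listed mature mouse miRNAs from 12 genes shared the let-7 seed, bases 2 to 8. The 5p strand of let-7a-2 is not listed there, so that gene is not among them. Below, 3 of these are shown with the unrelated miR-125b, which is known to share targets with let-7. Capitals mark the seed.
let-7a-5p: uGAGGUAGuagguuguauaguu
let-7g-5p: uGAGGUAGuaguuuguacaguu
miR-98-5p: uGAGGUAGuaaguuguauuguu
miR-125b-5p: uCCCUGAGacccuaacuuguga

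LIN28 is known to prefer GGAG in the terminal loop, and this motif was searched for in the bases between the 5p and 3p strands, on the hairpin strand alone. It occurred in 9 of 12 loops of the let-7 and miR-98 hairpins, a set that includes let-7a-2 but not let-7k. Among all 644 mouse hairpins with both arms listed, 8.07% had it in the loop. The loops below show 2 with the motif (capitals) and 1 of the 3 without it.
let-7a-1 loop: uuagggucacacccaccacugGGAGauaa
let-7c-1 loop: uagaguuacacccugGGAGuuaa
let-7c-2 loop: uugggcucugccccgcucugcgguaa

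A let-7 8mer (CTACCTCA, read on the transcript strand) was present in the longest 3′ UTR of a protein-coding transcript for 8 of the 10 genes. It was present in 3.06% of the 21037 genes with an annotated 3′ UTR. These genes are known for such sites, so that count describes the choice of members. Trim71 held 4 sites, Igf2bp1 held 3 and Lin28a held 2, against 0.152% of genes with 2 or more. Lin28b, Hmga2, Igf2bp2, Igf2bp3 and Arid3a held 1 each, and these letters were not found in Hmga1 or Dis3l2. With 7mers (CTACCTC, which counts the 8mers again), Lin28b and Hmga2 held 4 each and Hmga1 held 1, where 9.02% of genes had any. The 3′ UTRs were long in the members with most sites, at 5512 bases in Trim71 and 6337 in Igf2bp1 against a median of 960 over all genes, while that of Dis3l2 was 350. The first site lay 36 bases after the stop codon in Lin28b and 58 in Hmga2. A pair of Trim71 sites began at 3591 and 3617.

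The miR-125 8mer (CTCAGGGA) was found in 4 members, with 2 sites in Arid3a and 1 each in Lin28a, Lin28b and Trim71, where 4.59% of genes had it. It shares the letters CTCA with the end of the let-7 8mer, so the matches can abut or overlap. The sites below, on GRCm38 with the GENCODE M21 annotation, are 30 bases each from the 3′ UTRs of the genes whose levels are described next. Capitals mark the let-7 8mer.
Lin28a, chr4:134005189-134005218, minus strand: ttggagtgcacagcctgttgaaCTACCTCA
Lin28b, chr10:45381022-45381051, minus strand: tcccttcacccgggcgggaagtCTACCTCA
Trim71, chr9:114512472-114512501, minus strand: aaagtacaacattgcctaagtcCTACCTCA
Hmga2, chr10:120364224-120364253, minus strand: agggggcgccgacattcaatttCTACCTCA
Igf2bp1, chr11:95961778-95961807, minus strand: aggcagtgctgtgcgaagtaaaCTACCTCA
Igf2bp3, chr6:49086787-49086816, minus strand: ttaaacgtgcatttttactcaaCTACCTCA

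**Figure D1:**
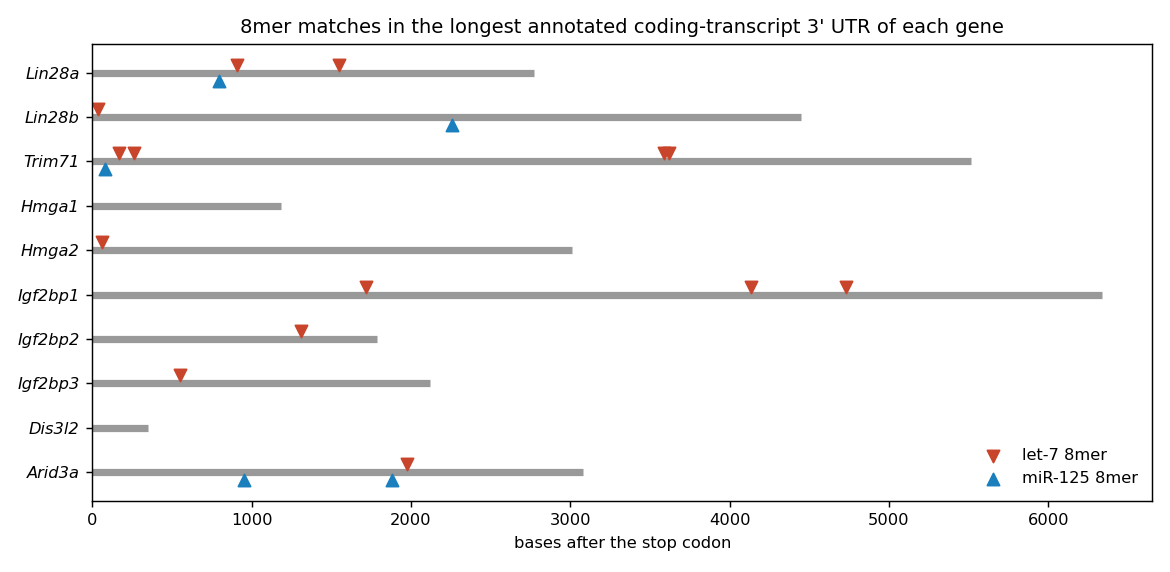
Position of let-7 8mers (red, pointing down) and miR-125 8mers (blue, pointing up) in bases after the stop codon, along the longest annotated 3′ UTR of each gene (grey bars, to scale). Trim71 carries 4 let-7 sites and Igf2bp1 carries 3, while Hmga1 and Dis3l2 carry none of either 8mer.

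The table gives no read counts, so depth is unknown, and errors rest on the spread over the samples of a line. The 8 embryonic carcinoma markers (Pou5f1, Sox2 and Nanog among them) all averaged at least 1 TPM in each line, with sums of 2543 to 3329 TPM over the 18 samples. Most of each sum was Pou5f1, with means of 2088, 2095 and 2040 TPM in WT, HetKO and HM. Other markers moved apart, with Nanog at 46.9, 86.3 and 18.8 TPM, Sall4 at 24.5, 46.7 and 8.85, and L1td1 at 138, 282 and 306. Of the 8, 3 were called higher and 2 lower in HM than in WT, where 19.4% of all genes were higher and 32% lower. Dicer1, the edited gene, had a mean of 52.3 ± 2.09 TPM in WT, 48.0 ± 4.10 in HetKO and 40.3 ± 3.18 in HM (SD, n = 6 each). Mature let-7 cannot be read from mRNA libraries, and the 12 let-7 and miR-98 precursor genes in the table were listed at 0 in every sample. Within each line the samples formed 3 alike pairs. Over 683 genes of at least 200 TPM on average, 2 samples of a pair differed by a robust SD of 0.049 to 0.105 on the log2 scale, and samples of different pairs by 0.073 to 0.358. The alike samples were replicates 1 and 4, 2 and 5, and 3 and 6 in WT and HetKO, and 1 and 4, 2 and 3, and 5 and 6 in HM. No label gives these pairs, which follow the likeness of the samples. In WT the SDs inside pairs, 0.049 to 0.075, reached those between pairs, 0.073 to 0.205. The labels do not say that the 6 samples of a line are separate cultures, so p-values measure the spread between these samples, which may be technical, and the calls below are given with their adjusted p from 3 pair means per line. Mesoderm markers (8 genes, led by T and Eomes) summed to 197 TPM in HetKO 2 and 139 in HetKO 5, against 12.4 to 32.6 in the other HetKO samples, while Mesp1, Kdr and Hand1 stayed under 1 TPM in all HetKO samples. HetKO 2 and 5 also had the lowest sums of fibroblast markers in the line, 10.9 and 11.5 TPM against 37.2 to 40.7, of neural markers, 27.4 and 26.4 against 36.2 to 56.7, and of endoderm markers, 5.51 and 6.33 against 7.51 to 10.7. HM 5 and 6 had the lowest neural sums of their line, 30.4 and 30.9 TPM against 38.3 to 58.4. The mesoderm sums were 18.8 to 29.0 TPM in WT and 34.7 to 71.1 in HM.

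In WT the order of mean TPM was Hmga1, Lin28a, Igf2bp1, Igf2bp2, Lin28b, Igf2bp3, Trim71, Hmga2, Dis3l2 and Arid3a. Neighbours in this order did not overlap between samples, except Trim71 with Hmga2 and Dis3l2 with Arid3a. In HM the first 4 places were the same, and each of Igf2bp2, Igf2bp3 and Lin28b overlapped the next in order, as did Hmga2, Arid3a and Dis3l2 at the low end. In 27 of 30 combinations of gene and line, the range of the 3 pair means on the log2 scale was wider than the largest gap inside a pair. The pairs were themselves read from the likeness of these samples, so such a count was largely fixed in advance. It was not taken over all genes.

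**Figure D2:**
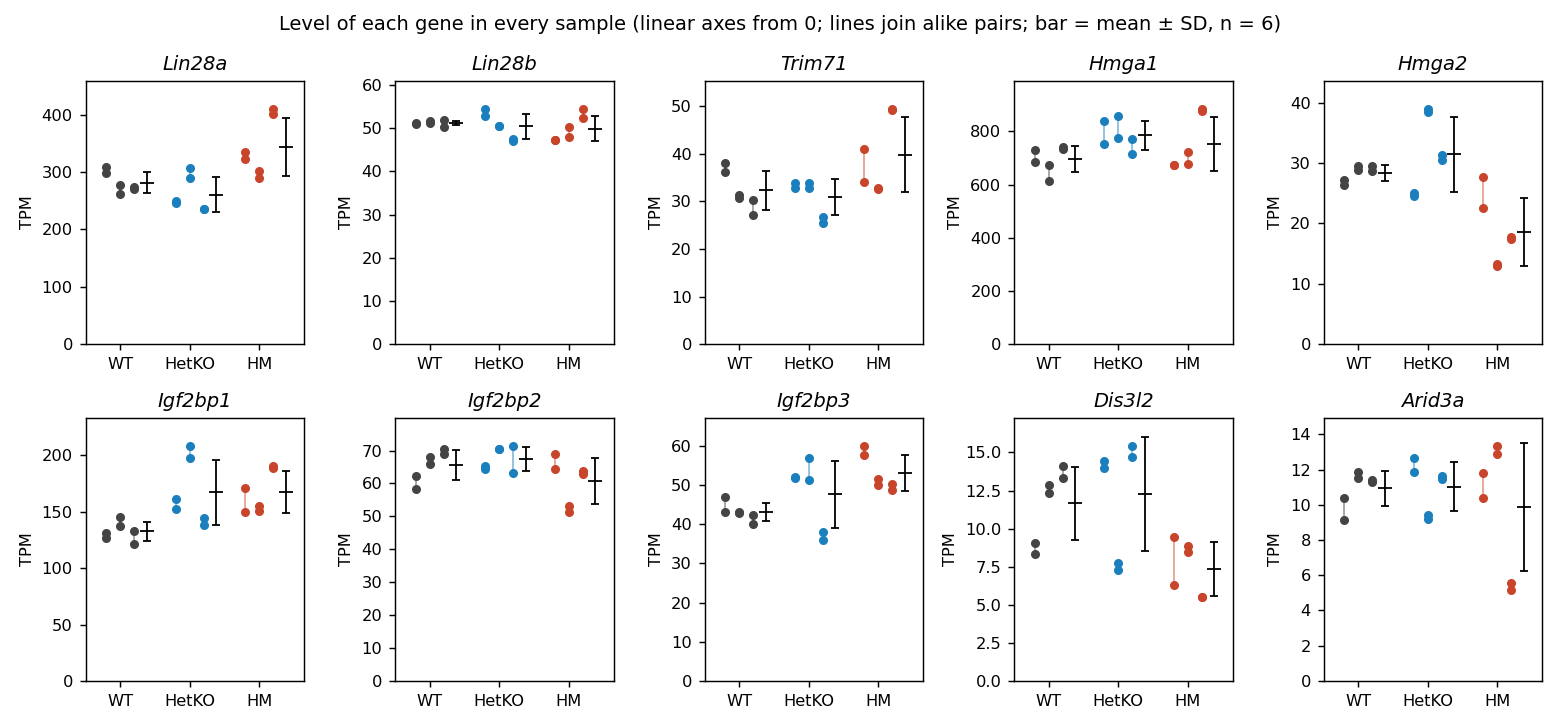
TPM of the 10 genes in each of the 18 samples, on linear axes from 0, with WT in grey, HetKO in blue and HM in red. Vertical lines join the alike samples of a pair and the black bar is the mean ± SD (n = 6). Igf2bp1 and Igf2bp3 lie higher in all HM samples than in any WT sample, Lin28b is nearly level, and the pairs of a line stand apart for Hmga2 in HetKO and HM.

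Lin28a was the more abundant of the paralogs that block let-7 processing, and its mRNA was higher in HM. Its TPM ran from 261 to 308 in WT (median 276), from 235 to 306 in HetKO (median 248) and from 290 to 409 in HM (median 329). In HM, 4 of 6 samples lay above every WT sample, and replicates 5 and 6 were the highest at 401 and 409. The log2 fold change on the log2(TPM + 1) scale was 0.27 ± 0.09 (SE) against WT (adjusted p = 0.0179, limma) and 0.39 ± 0.10 against HetKO (adjusted p = 0.0106, limma). In bulk RNA, fewer cells that express a gene and less of its RNA per cell cannot be told apart. On pair means neither passed (adjusted p = 0.143 and 0.172, limma). After quantile normalization HM vs WT was 0.11 and did not pass (adjusted p = 0.259, limma). Without HM 5 and 6, the log2 fold change against WT was 0.15 (adjusted p = 0.068, limma) and that against HetKO was 0.27 (adjusted p = 0.0545, limma). HetKO vs WT stood at -0.12 ± 0.07 (adjusted p = 0.317, limma), and at -0.16 after quantile normalization, where it passed (adjusted p = 0.0452, limma). HetKO 2 and 5, the samples with high mesoderm and low fibroblast, neural and endoderm markers, were the 2 highest HetKO samples for Lin28a at 290 and 306 TPM. Without them Lin28a was lower in HetKO than in WT at -0.22 (adjusted p = 0.0267, limma). The part of these marker differences, and of the low neural markers of HM 5 and 6, in the results was not tested.

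Lin28b, its paralog, was the steadiest member. Its TPM ran from 50.2 to 51.8 in WT (median 51.3), from 47.0 to 54.4 in HetKO (median 50.6) and from 47.2 to 54.4 in HM (median 49.2). The 3 ranges overlapped. No comparison passed, with log2 fold changes of -0.04 ± 0.05, -0.02 ± 0.05 and -0.02 ± 0.06 for HM vs WT, HetKO vs WT and HM vs HetKO. The coefficient of variation over the 6 WT samples was 1.10%, against 6.47% for Lin28a.

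Dis3l2, the exonuclease that degrades uridylated precursors, was lower in HM. Its TPM ran from 8.31 to 14.1 in WT (median 12.6), from 7.29 to 15.4 in HetKO (median 14.2) and from 5.51 to 9.45 in HM (median 7.38). WT 1 and 4, HetKO 2 and 5 and HM 5 and 6 were the lowest of their lines, and the low WT samples overlapped the HM range. The log2 fold change was -0.60 ± 0.16 against WT (adjusted p = 0.00734, limma; 0.0846 on pair means) and -0.64 ± 0.21 against HetKO (adjusted p = 0.0312, limma; 0.226 on pair means). The HM vs HetKO call did not hold without HM 5 and 6, at -0.48 (adjusted p = 0.158, limma). It was also lost when any of 7 samples was left out by itself (HM 4, 5 or 6, HetKO 1, 3, 4 or 6), at -0.57 to -0.61 (adjusted p up to 0.0704, limma), with no filter on low values (adjusted p = 0.0618, limma) and in the unequal-variance test (adjusted p = 0.0629). HetKO vs WT stood at 0.03 ± 0.20.

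Tut4 and Tut7, the transferases that tail let-7 precursors, were lower in HM than in WT as well. Tut4 ran from 57.6 to 64.5 TPM in WT, from 52.3 to 62.3 in HetKO and from 37.3 to 56.1 in HM, so HM and WT did not overlap (log2 fold change -0.43 ± 0.09, adjusted p = 0.00183, limma; 0.0513 on pair means). Tut7 ran from 22.1 to 27.8 TPM in WT, from 19.8 to 25.1 in HetKO and from 18.1 to 22.8 in HM, with overlap (-0.24 ± 0.08, adjusted p = 0.0191, limma; 0.16 on pair means). Against HetKO, Tut4 was lower in HM at -0.32 ± 0.10 (adjusted p = 0.0262, limma; 0.231 on pair means), and Tut7 was at -0.14 ± 0.08 (adjusted p = 0.18, limma). For HetKO vs WT neither passed, at -0.11 ± 0.06 and -0.10 ± 0.08.

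Trim71, an RNA-binding ubiquitin ligase of early embryonic cells, had 4 let-7 sites and its highest values in HM. Its TPM ran from 27.1 to 38.1 in WT (median 31.1), from 25.5 to 33.9 in HetKO (median 32.8) and from 32.6 to 49.4 in HM (median 37.5). HM 5 and 6 were highest at 49.4 and 49.1, and HM 1, 2 and 3 lay within the WT range. Its log2 fold change of 0.28 ± 0.12 in HM vs WT missed the threshold (adjusted p = 0.0749, limma). It passed after quantile normalization, at 0.34 (adjusted p = 0.0393, limma), and after centring samples on their median, at 0.46 (adjusted p = 0.017, limma). It also passed without WT 4, HM 2 or HM 3, at 0.33 in each case (adjusted p 0.0421 to 0.0474, limma). Without HM 5 and 6 it was 0.12 (adjusted p = 0.373, limma). Against HetKO the log2 fold change was 0.34 ± 0.13 (adjusted p = 0.053, limma), and it passed under both scalings, in the single fit of 3 lines, with a filter at 5 TPM, without HetKO 2 and 5, and without HM 1, 2 or 3, at 0.34 to 0.46. On pair means Trim71 passed neither against WT nor against HetKO (adjusted p = 0.258 and 0.287, limma). The same held with the replicate block (adjusted p = 0.113 and 0.0652, limma). HetKO vs WT stood at -0.06 ± 0.10.

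Hmga2, an AT-hook chromatin protein and a textbook let-7 target, was lower in HM. Its TPM ran from 26.4 to 29.5 in WT (median 28.7), from 24.5 to 38.9 in HetKO (median 30.9) and from 12.9 to 27.7 in HM (median 17.6). In HM, 5 of 6 samples lay below every WT sample, and HM 4 reached the WT range. HetKO 2 and 5 were the highest of all samples, at 38.4 and 38.9. The log2 fold change was -0.63 ± 0.15 against WT (adjusted p = 0.00434, limma; 0.0725 on pair means) and -0.75 ± 0.18 against HetKO (adjusted p = 0.00795, limma; 0.147 on pair means). In HetKO, 4 samples lay above every WT sample and 2 below, with a log2 fold change of 0.13 ± 0.11 (adjusted p = 0.483, limma), and of -0.03 without HetKO 2 and 5.

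Hmga1, the other AT-hook protein, was the most abundant member, but its value depends on how reads were split with a near copy. Of the 31-base stretches in its longest-UTR transcript, 89.6% also occurred in Hmga1b, and for no other member did more than 2.83% occur in another gene. Hmga1 ran from 613 to 741 TPM in WT (median 708), from 714 to 856 in HetKO (median 774) and from 673 to 883 in HM (median 700.4), and Hmga1b from 944 to 1850 over the 18 samples. HM 5 and 6 were the highest samples for Hmga1, at 883 and 878. No comparison passed, with log2 fold changes of 0.10 ± 0.08 for HM vs WT, 0.17 ± 0.06 for HetKO vs WT (adjusted p = 0.0764, limma) and -0.07 ± 0.08 for HM vs HetKO. The first passed with centred samples at 0.28 (adjusted p = 0.0263, limma), and the last without HM 5 and 6 at -0.19 (adjusted p = 0.0444, limma). With both genes summed, an alternative chosen after the data were seen, these were 0.01, 0.14 and -0.13, and no comparison passed. The level of Hmga1 is therefore uncertain.

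Of the 3 Igf2bp genes, which encode oncofetal mRNA-binding proteins, Igf2bp1 and Igf2bp3 were higher in HM than in WT without overlap, where 28.5% of all genes did not overlap. Igf2bp2 did not pass in any comparison. Igf2bp1 ran from 122 to 145 TPM in WT (median 132), from 138 to 208 in HetKO (median 157) and from 150 to 190 in HM (median 163). All 6 HM samples lay above every WT sample, with a log2 fold change of 0.33 ± 0.07 (adjusted p = 0.00213, limma; 0.0559 on pair means). In HetKO, 4 of 6 samples did so, and the log2 fold change of 0.32 ± 0.10 missed the threshold (adjusted p = 0.058, limma). It passed after quantile normalization, at 0.28 (adjusted p = 0.0396, limma), and without HetKO 3 or HetKO 6, at 0.35 and 0.37 (adjusted p = 0.0436 and 0.0313, limma). HetKO 2 and 5, at 197 and 208 TPM, were the highest of the line, and without them the log2 fold change was 0.17 (adjusted p = 0.118, limma). HM vs HetKO stood at 0.01 ± 0.11.

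Igf2bp3 ran from 40.0 to 47.0 TPM in WT (median 43.0), from 35.9 to 56.8 in HetKO (median 51.5) and from 48.7 to 60.0 in HM (median 50.9). All 6 HM samples lay above every WT sample, with a log2 fold change of 0.29 ± 0.06 (adjusted p = 0.00201, limma; 0.0725 on pair means). HetKO 3 and 6 lay below the WT range, at 37.9 and 35.9, and the other 4 above it. The log2 fold changes were 0.12 ± 0.11 for HetKO vs WT and 0.17 ± 0.11 for HM vs HetKO, and neither passed. Igf2bp2 ran from 58.5 to 70.4 TPM in WT (median 67.0), from 63.0 to 71.4 in HetKO (median 67.8) and from 51.4 to 69.0 in HM (median 63.3). Its ranges overlapped in every comparison, with log2 fold changes of -0.11 ± 0.08, 0.04 ± 0.06 and -0.16 ± 0.08 for HM vs WT, HetKO vs WT and HM vs HetKO.

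Arid3a, a DNA-binding transcription factor with 2 miR-125 8mers, differed within HM more than between lines. Its TPM ran from 9.16 to 11.9 in WT (median 11.3), from 9.18 to 12.6 in HetKO (median 11.6) and from 5.16 to 13.3 in HM (median 11.1). HM 5 and 6 stood at 5.16 and 5.58, below all 16 other samples, and the remaining HM samples at 10.4 to 13.3. The log2 fold change of HM vs WT was -0.21 ± 0.21 (adjusted p = 0.418, limma), and 0.13 without HM 5 and 6 (adjusted p = 0.269, limma). The other comparisons were at 0.01 ± 0.09 for HetKO vs WT and -0.22 ± 0.22 for HM vs HetKO.

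Between HM and WT, 5 of the 10 members passed, 3 higher (Lin28a, Igf2bp1 and Igf2bp3) and 2 lower (Hmga2 and Dis3l2). Over all genes 51.4% passed, 7220 of 14043, with 19.4% higher and 32% lower, so the members' share was near the background. Igf2bp1 and Igf2bp3 were the 2 members whose samples did not overlap, against the 28.5% of all genes given above. The median log2 fold change was 0.03 over the members and -0.09 over all genes. Relative to the latter, Lin28a stood at 0.37, Igf2bp1 at 0.42, Igf2bp3 at 0.38, Hmga2 at -0.53 and Dis3l2 at -0.51. Centring the samples on their median moved the all-gene median by 0.18 and the share of calls that were higher in HM from 37.7% to 61.0%, with 7 members called, 5 higher and 2 lower. After quantile normalization, which moved it by 0.11, this share was 51.1% and the Lin28a call was lost. Without HM 5 and 6, 4 members passed, all but Lin28a. On pair means none of the 10 passed, where 23.6% of all genes did.

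For HetKO vs WT, 0 of the 10 members passed in limma, where 10.2% of all genes did, 1421 of 13999, with 3.71% higher and 6.44% lower. Hmga1 and Igf2bp1 were the 2 members with an unadjusted p under 0.05. The unequal-variance test per gene also called 0 members. All 10 overlapped, where 8.21% of all genes did not. The median log2 fold change was 0.04 over the members and -0.03 over all genes. On pair means 0.243% of all genes passed. The share of calls that were higher in HetKO went from 36.5% to 50.7% with centred samples.

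For HM vs HetKO, 3 members passed, Lin28a higher and Hmga2 and Dis3l2 lower, where 34.6% of all genes passed, 4765 of 13762, with 14% higher and 20.6% lower. All 10 overlapped, where 15.5% of all genes did not. On pair means no member passed, where 3.03% of all genes did. With centred samples the all-gene median moved by 0.12 and the share of calls that were higher in HM from 40.4% to 60.9%. The member median was -0.04 and that of all genes -0.05. Each pair of comparisons shares samples of a line, so the 3 sets of values are not independent of each other.

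**Figure D3:**
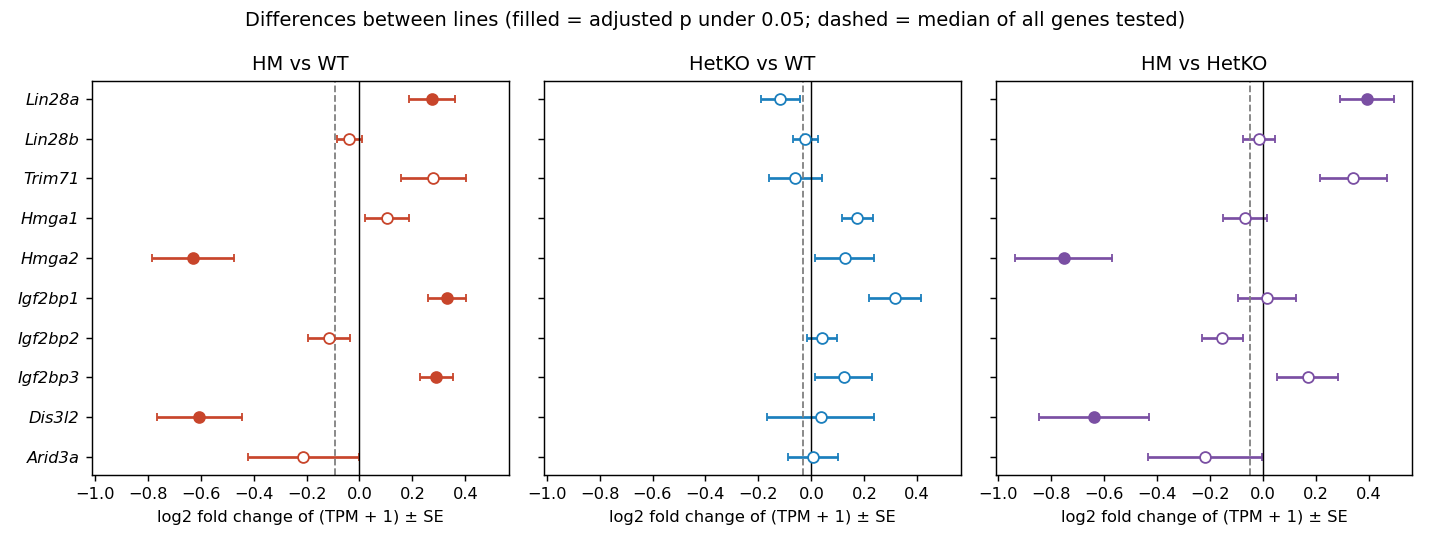
Log2 fold changes of (TPM + 1) with their standard errors for the 10 genes in HM vs WT, HetKO vs WT and HM vs HetKO (6 samples a line), with the median of all genes tested as a dashed line. Filled points passed an adjusted p of 0.05, which are 5, 0 and 3 of the 10 in that order.

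Ratios between paralogs depend little on a single scaling factor per sample, and were compared as differences of log2(TPM + 1) within each sample. Normalization that acts by level can move them, and the ratios were not tested after quantile normalization. There the log2 fold changes for HM vs WT were 0.11 for Lin28a, -0.02 for Lin28b, -0.51 for Hmga2 and -0.01 for Hmga1. Lin28b relative to Lin28a was lower in HM, at -2.75 ± 0.16 against -2.43 ± 0.10 in WT and -2.34 ± 0.16 in HetKO (SD, n = 6 each). The difference was -0.31 for HM vs WT and -0.41 for HM vs HetKO (both adjusted p = 0.026 over 12 two-sided exact permutation tests). The ratio of Hmga2 to Hmga1 carries the uncertain split of Hmga1 reads with Hmga1b. It was at -5.30 ± 0.48 in HM, -4.57 ± 0.13 in WT and -4.62 ± 0.28 in HetKO. HM differed by -0.73 from WT (adjusted p = 0.0325, exact permutation test) and by -0.68 from HetKO (adjusted p = 0.0476, exact permutation test). HM 4, at -4.55, lay within the WT range and the other 5 HM samples below it. HM 1, at -4.84, lay within the HetKO range, and the remaining 4, from -5.70 to -5.54, lay below both.

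Igf2bp2 relative to Igf2bp1 was lowest in HM, at -1.45 ± 0.16, against -1.28 ± 0.21 in HetKO and -1.002 ± 0.116 in WT. All 6 HM samples, from -1.57 to -1.21, lay below the 6 WT samples, from -1.10 to -0.81. The difference was -0.45 for HM vs WT (adjusted p = 0.026, exact permutation test) and -0.28 for HetKO vs WT (adjusted p = 0.0468, exact permutation test), and the latter was -0.16 without HetKO 2 and 5 (adjusted p = 0.15, exact permutation test). For HM vs HetKO it was -0.17 (adjusted p = 0.201, exact permutation test). Igf2bp3 relative to Igf2bp1 did not pass in any comparison, with the lowest adjusted p at 0.0705 (exact permutation test) for HetKO vs WT. The other 2 ratios did not pass for HetKO vs WT. The calls on Hmga2 to Hmga1, on Igf2bp2 to Igf2bp1 in HetKO and on Lin28b to Lin28a in HM vs WT did not hold for every sample left out. With 3 pair means a line, 0.1 is the smallest p an exact test allows, so no ratio could pass.

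**Figure D4:**
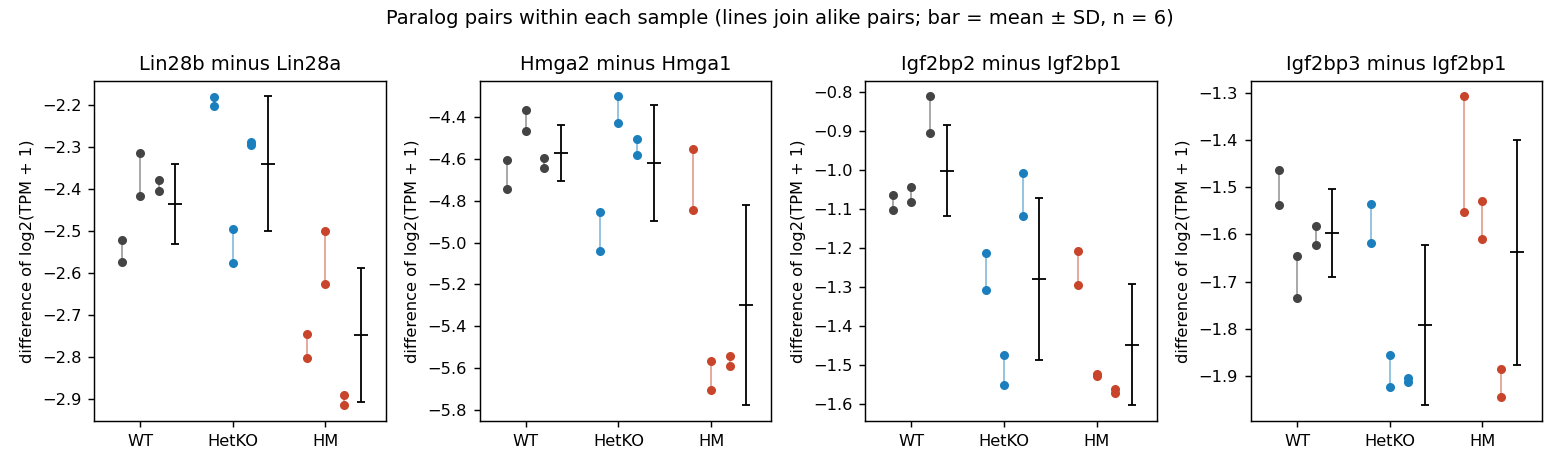
Difference of log2(TPM + 1) between paralogs within each sample, for 4 pairs in WT (grey), HetKO (blue) and HM (red), with lines joining alike samples and bars for the mean ± SD (n = 6). For Igf2bp2 minus Igf2bp1 all red points lie below all grey points. For Hmga2 minus Hmga1, 4 red points lie from -5.70 to -5.54 and the other 2 at -4.84 and -4.55. The vertical axes do not start at 0.

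Other genes of the pathway were taken from lists of known roles. Of 13 miRNA processing genes, 3 were higher and 5 lower in HM than in WT, where 19.4% of all genes were higher and 32% lower, so the list was near the background. The higher ones were Dgcr8 and Drosha, the Microprocessor subunits, and Xpo5, the exportin of precursors. Dgcr8 was at 0.85 ± 0.11 (adjusted p = 4.63e-05, limma; 0.0145 on pair means). Drosha was at 0.30 ± 0.08 (adjusted p = 0.00914, limma, and 0.113 on pair means) and Xpo5 at 0.33 ± 0.10 (adjusted p = 0.0153, limma, and 0.132 on pair means). The lower ones were Dicer1, Tut4, Tut7, Khsrp, which binds let-7 precursors, and Msi1. Dicer1 was at -0.37 ± 0.06 (adjusted p = 0.000251, limma; 0.0254 on pair means), Khsrp at -0.33 ± 0.06 (adjusted p = 0.000641, limma; 0.0438 on pair means) and Msi1 at -0.19 ± 0.06 (adjusted p = 0.0191, limma, and 0.144 on pair means). For HetKO vs WT, 1 of the 13 passed, Ago2, lower at -0.20 ± 0.06 (adjusted p = 0.0464, limma, and 0.519 on pair means), where 10.2% of all genes passed. Dgcr8 stood there at 0.42 ± 0.16 (adjusted p = 0.106, limma). Of the 13, 1 was higher in HM than in HetKO (Trim25) and 2 lower (Tut4 and Dicer1). Over all genes 14% were higher in that comparison and 20.6% lower. On pair means these did not pass (adjusted p 0.121 to 0.232, limma). Trim25 was at 1.43 ± 0.36 for HM vs HetKO but at 0.006 ± 0.54 for HM vs WT (adjusted p = 0.994, limma). For HetKO vs WT it was at -1.42 ± 0.57 and did not pass (adjusted p = 0.127, limma). Dgcr8 (0.43 ± 0.18), Drosha (0.15 ± 0.09), Xpo5 (0.22 ± 0.12), Khsrp (-0.16 ± 0.09) and Msi1 (-0.18 ± 0.08) did not pass against HetKO (adjusted p 0.0807 to 0.194, limma). Names in this list beyond Tut4, Tut7 and Dicer1 were chosen after their values were seen.

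Of 38 tested other let-7 targets, 12 were higher and 8 lower in HM than in WT, where 51.4% of all genes passed, 19.4% higher and 32% lower. They had a median log2 fold change of -0.01 against -0.09 over all genes. The 3 largest increases over the pathway lists among genes without overlap were Ccnd1, Egr1 and Igf2r. Ccnd1, the G1 cyclin D1, rose from 11.1 ± 1.25 TPM in WT to 153 ± 58.4 in HM (log2 fold change 3.59 ± 0.21, adjusted p = 1.54e-07, limma; 0.00224 on pair means) and stood at 30.8 ± 16.8 in HetKO, above WT without overlap (1.24 ± 0.26, adjusted p = 0.0108, limma; 0.305 on pair means). Egr1, an immediate early transcription factor listed as a Trim71 target, rose from 3.96 ± 0.87 TPM to 21.3 ± 5.23 (2.15 ± 0.17, adjusted p = 2.96e-06, limma; 0.00639 on pair means). Igf2r, the imprinted receptor that clears IGF2, ran from 1.71 to 10.8 TPM in WT (median 2.04), from 0 to 0.23 in HetKO and from 14.3 to 17.3 in HM (1.90 ± 0.37 for HM vs WT, adjusted p = 0.00106, limma; 0.0387 on pair means). Its 3 ranges did not overlap.

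The 3 largest decreases among genes without overlap were all from the list of let-7 targets. That list is the longest, with 38 tested genes against 13, 9, 5 and 1 in the other pathway lists. Gatm, the first enzyme of creatine synthesis, fell from 4.11 ± 0.47 TPM in WT to 0.293 ± 0.268 in HM (-2.001 ± 0.147, adjusted p = 1.38e-06, limma; 0.00845 on pair means) and stood at 5.90 ± 1.05 in HetKO. HetKO was higher than WT for Gatm at 0.43 ± 0.11 (adjusted p = 0.0321, limma; 0.466 on pair means). Insr, the insulin receptor, fell from 21.9 ± 3.51 TPM to 11.04 ± 2.02 (-0.93 ± 0.13, adjusted p = 0.000116, limma; 0.0191 on pair means). Bach1, a repressor of heme-responsive genes, fell from 35.4 ± 2.49 TPM to 19.6 ± 1.45 (-0.82 ± 0.07, adjusted p = 2.98e-06, limma; 0.0097 on pair means).

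Of 5 tested Trim71 targets 2 were higher and 1 lower in HM than in WT, and of 9 tested mRNAs bound by the IGF2BP or LIN28 proteins 4 were higher and 3 lower, where 51.4% of all genes passed. For HetKO vs WT, where 10.2% of all genes passed, 4 let-7 targets were higher and 3 lower of 38, 0 Trim71 targets of 5 passed, and 1 of 9 bound mRNAs was lower. For HM vs HetKO, where 34.6% did, 7 let-7 targets were higher and 6 lower of 38, 1 Trim71 target was higher, and 2 bound mRNAs were higher and 2 lower. Huwe1, which hosts let-7f-2 and miR-98 in an intron, was the only listed host gene tested and did not pass for HM vs WT, at 0.17 ± 0.12.

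**Figure D5:**
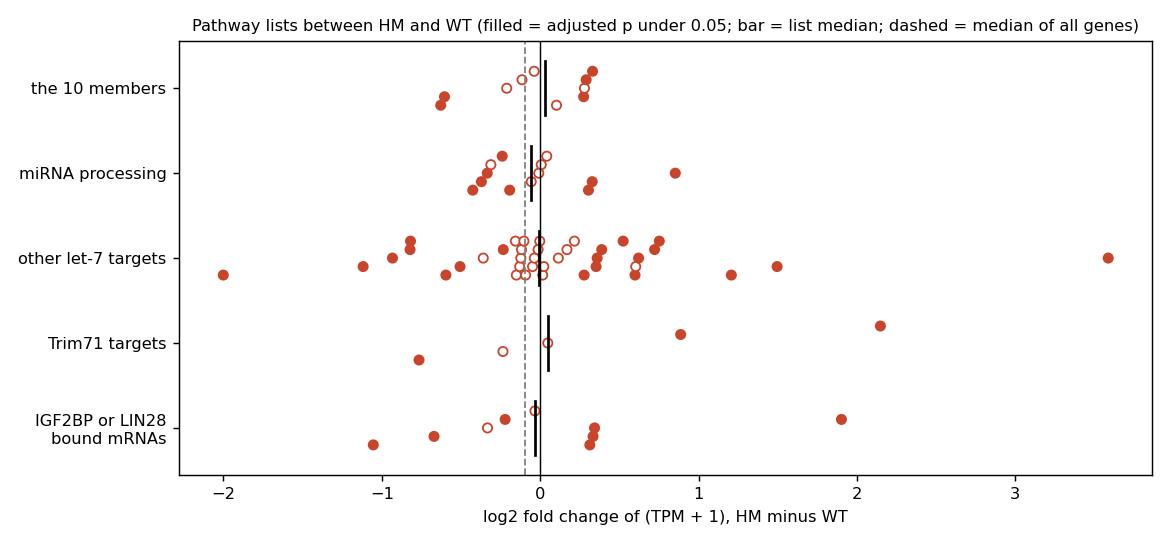
Log2 fold change of (TPM + 1) between HM and WT for the 10 members and 4 lists of pathway genes, 1 point a gene, filled where the adjusted p was under 0.05, with a bar at each list's median and a dashed line at the median of all genes. Let-7 targets run from Gatm at -2.001 to Ccnd1 at 3.59 around a list median of -0.01.

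Over all tested genes with an annotated 3′ UTR, the number of let-7 8mers was set beside the share of calls. For HM vs WT, 21.99% of 423 genes with 1 site were higher and 34.0% lower. Of 27 genes with 2 or more sites 18.5% were higher and 33.3% lower, and of 11663 genes with none 20.5% were higher and 34.5% lower. The median log2 fold changes were -0.13, -0.12 and -0.10 in that order. For HetKO vs WT, 5.67% of genes with 1 site were higher and 9.69% lower, against 3.88% and 6.75% of genes with none. Of the 27 with 2 or more sites 0% were higher and 7.41% lower. For HM vs HetKO the shares were 13.8% and 23.0% with 1 site, 14.8% and 22.2% with 2 or more, and 14.8% and 22.2% with none. No test was made of these shares.

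Genes with the most similar course over the 18 samples were found by the root mean square difference of log2(TPM + 1) after centring each gene on its mean. For Lin28a these were Akap1, Psmd7 and Mad2l1, with differences of 0.063, 0.073 and 0.082. For Trim71 they were Ubap2, Nup153 and Cstf1 (0.086 to 0.094), and for Igf2bp1 Lsr, Rrm2 and Gmps (0.076 to 0.079). Igf2bp2 had Ppm1a, Incenp and Mtmr9 (0.078 to 0.082). For Dis3l2 the nearest were Acss2, Kif3c and Npc2 (0.112 to 0.122) and for Arid3a Padi4, Mark4 and Kmt2e (0.142 to 0.161). Padi4 averaged 1.52 TPM over the 18 samples, a low level at which log2(TPM + 1) narrows differences. The nearest genes to Hmga2 were Zfp808, Itgb5 and Anxa7, at 0.198 to 0.209, the farthest neighbours of any member. For Lin28b they were Virma, Klhdc2 and Cript (0.049 to 0.055) and for Hmga1 Pus1, Pigf and Pigt (0.075 to 0.093). Lin28b, Igf2bp2 and Hmga1 varied least over the 18 samples, with SDs of 0.065, 0.131 and 0.148 on the log2 scale, so that a small difference there says less of a shared course. No member was among the 3 nearest genes of another.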

How the data were processed

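The members and gene lists were chosen with earlier results of these data known. Read pairs were merged by the authors with BBMerge before RSEM estimated gene levels, which they deposited as TPM for 55450 genes. Per the labels, cutadapt, STAR and mm10 were also used, with no versions given. All identifiers matched GENCODE M21 (GRCm38), which supplied positions and 3′ UTRs of protein-coding transcripts, and RefSeq supplied miRNAs.

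In each comparison, a gene entered the test where its TPM averaged 1 or more across both lines (12 samples). log2(TPM + 1) was fitted in limma 3.58.1 (R 4.3.3) with a trended prior, and p-values were adjusted by Benjamini-Hochberg over all tested genes, with 0.05 as the threshold. This scale understates the fold change of low genes. The fit was tested on simulated data with independent samples and the spread of WT in both groups. Those data held no alike pairs, so the simulation cannot say how the calls fare with them. Paralog ratios were tested by exact two-sided permutation of the samples, with 0.00216 as the smallest possible p. Alternatives were a pseudocount of 0.1, filters at 0.1, 5 or no TPM, centred or quantile-normalized samples, a single fit of 3 lines, an unequal-variance test, a 1.5-fold limit, the replicate number as a block, pair means and samples left out. Removal of HM 5 and 6 and the sum of Hmga1 and Hmga1b were added after the data were seen. The alike pairs and the removal of HetKO 2 and 5 also rest on these data, as no label gives them.

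Named genes were the members, Tut4, Tut7, Dicer1, Hmga1b, the 3 largest increases and decreases in the pathway lists among genes called between HM and WT without overlap, and the 3 genes nearest in pattern to each member, which for Igf2bp3 are not reported here. Other processing genes, single cell type markers and Huwe1 were named outside this rule, after their values were seen. Python 3.11.15, numpy 2.4.6 and pandas 2.3.3 were used.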

Additional observations from a re-analysis of the deposited data

How the results depend on the processing

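On pair means 3316 genes were called for HM vs WT, 34 for HetKO vs WT and 417 for HM vs HetKO, with 0 members in each. A 1.5-fold limit left 3008, 666 and 2099 genes, with 2 members (Hmga2 and Dis3l2) between HM and WT. The unequal-variance test called 852 genes between HetKO and WT. Without HM 5 and 6, 2785 genes were called between HM and HetKO. Between HetKO and WT 2 members passed after quantile normalization (Lin28a and Igf2bp1), 1 in the single fit and 1 with the replicate block (Igf2bp1), and 1 without HetKO 2 and 5 (Lin28a). Leaving out 1 sample gave 6541 to 7361 genes and 5 to 6 members for HM vs WT, 959 to 1518 genes and 0 to 1 member (Igf2bp1, without HetKO 3 or 6) for HetKO vs WT, and 3655 to 5213 genes and 2 to 4 members for HM vs HetKO. The cause was not tested.

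To look for pairing, log2(TPM + 1) of each gene was centred on its mean within each line. What was left of same-numbered samples correlated by -0.0738 to 0.109, 0.0246 to 0.116 and -0.167 to 0.169 in the 3 comparisons. These values are low, but they do not settle whether the numbers pair the samples. With the replicate block, Igf2bp1 passed between HetKO and WT (adjusted p = 0.0334, limma), and no other member changed its call. For the ratios the block was a sign flip over 6 differences, whose smallest unadjusted p of 0.0312 leaves little room over 12 tests. Lin28b to Lin28a (-0.31 against WT, -0.41 against HetKO), Hmga2 to Hmga1 (-0.73 and -0.68) and Igf2bp2 to Igf2bp1 (-0.45, and -0.28 for HetKO vs WT) then did not pass (adjusted p 0.075 to 0.214, exact permutation test). On pair means the same ratios were -0.31, -0.41, -0.73, -0.68, -0.45 and -0.28, with 0.3 to 0.45 as adjusted p in a test too small to pass.

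Without HetKO 2 and 5, Lin28b to Lin28a passed between HetKO and WT (0.19), Igf2bp2 to Igf2bp1 did not (-0.16), and Hmga2 to Hmga1 did not between HM and HetKO (-0.56). Without HM 5 and 6 the latter was -0.55 and did not pass, Igf2bp3 to Igf2bp1 passed between HM and HetKO (0.29) and was 0.10 between HM and WT, the opposite sign. With 1 sample left out, the ratios that lost a call in some runs ranged from -0.36 to -0.28 (Lin28b to Lin28a, HM vs WT, lost without WT 2, 3, 5 or 6), -0.88 to -0.65 (Hmga2 to Hmga1, HM vs WT, lost without WT 2, 3, 4, 5 or 6), -0.33 to -0.22 (Igf2bp2 to Igf2bp1, HetKO vs WT, lost without WT 2 to 6, HetKO 2 or HetKO 5) and -0.83 to -0.60 (Hmga2 to Hmga1, HM vs HetKO, lost without replicate 2, 3, 5 or 6 of either line), with adjusted p up to 0.0823 (exact permutation test). Igf2bp3 to Igf2bp1 ranged from -0.25 to -0.17 between HetKO and WT, passing without HetKO 1 or 4, and from -0.11 to 0.021 between HM and WT, and Hmga2 to Hmga1 from -0.11 to 0.037 between HetKO and WT.

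The signs of some differences that did not pass turned. Centring gave 0.14 for Lin28b and 0.063 for Igf2bp2 (HM vs WT), 0.032 for Lin28b (HetKO vs WT), and 0.10 for Lin28b and 0.045 for Hmga1 (HM vs HetKO). Quantile normalization gave -0.013 for Hmga1 and 0.014 for Arid3a (HM vs WT), and 0.012 for Lin28b and -0.036 for Igf2bp1 (HM vs HetKO). Without HM 5 and 6 these were -0.017 for Hmga1 and 0.13 for Arid3a (HM vs WT), and -0.079 for Igf2bp1 and 0.13 for Arid3a (HM vs HetKO). Without HetKO 2 and 5 it was -0.029 for Hmga2 (HetKO vs WT). One sample left out gave -0.049 to 0.16 for Dis3l2 and -0.039 to 0.053 for Arid3a (HetKO vs WT), and -0.038 to 0.080 for Igf2bp1 and -0.040 to 0.0061 for Lin28b (HM vs HetKO).

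For genes with 2 or more let-7 8mers, which stood at 33.3% lower (HM vs WT), 0% higher and 7.41% lower (HetKO vs WT) and 14.8% higher (HM vs HetKO), the shortest 3′ UTR gave 18.8% lower between HM and WT and 12.5% lower between HetKO and WT. Quantile normalization gave 3.70% higher and 11.1% lower between HetKO and WT and 25.9% higher between HM and HetKO, and counting 7mers gave 4.29% higher between HetKO and WT.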
